A study of Mus musculus with 8 samples.

Results

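The annexins are proteins that bind the phospholipids of membranes when calcium is present. The genes described are 9 annexins (Anxa1 to Anxa8 and Anxa11) and S100a10, which encodes p11, the S100 protein that pairs with annexin A2. They were found as the probes whose RefSeq accession maps to 1 of these 10 symbols, which gave 14 of the 55681 probes that are not controls. All 10 genes passed the filter on dim probes, among 25119 gene names. The family was chosen by the Anxa2 ratio, which had passed the threshold in this same comparison, so the ratios below describe the genes and support nothing further.

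White adipose tissue came from 5-week-old mice on regular chow, of a mixed background given as 129 × C57BL/6. The groups were 4 wild-type (WT) samples and 4 samples labelled Ad/NICD, with overexpressed N1ICD, the part of the Notch1 receptor that is active inside the cell. The sources used here do not give the promoter that drives the transgene, the fat depot or the sex of the mice. RNA of 1 WT and 1 Ad/NICD sample with the same replicate number was hybridised to each of 4 arrays with 2 colours, as the identical scanner tables of same-numbered samples show. The labels call the samples biological replicates.

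Directions are for red (Cy5) over green (Cy3), taken as Ad/NICD over WT. This is the likely direction, because the WT columns of the authors' value table hold the green channel and the Ad/NICD columns the red one. The dyes tagged on the samples run the other way (Cy5 for WT), and if they hold, every sign turns and WT and Ad/NICD levels trade places. No array had its dyes swapped, so any preference of a probe for 1 dye and the effect of genotype cannot be told apart.

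Annexin A2 sits on the inner face of the plasma membrane and on endosomes, and a pair of annexin A2 chains joined by a p11 dimer can bridge membranes and link them to actin. At the cell surface the same complex binds plasminogen and its activator, and p11 is known to be unstable as a protein without annexin A2. Other annexins act in the control of inflammation, in membrane repair and in vesicle traffic, and the family is made by many cell types of fat, from fibroblast-like progenitors to leukocytes and adipocytes.

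Promoter windows in the RefSeq table (GRCm38.p6, 250 bases before to 50 after a start site) were listed for 7 of the 10 members, in 9 windows. Of these, 3 are shown: those of Anxa2, the member that was called, of Anxa1, and of Anxa8, the member that varied most between mice. The Anxa1 ratios had the same order over arrays as those of S100a10, and so did those of Anxa5, whose window is not shown. Capitals mark matches to 4 motifs searched on both strands. The core recognised by RBPJ, the DNA-binding partner of Notch, was searched as TGGGAA. The site of the AP-1 factors was searched as TGANTCA, with any base at N. The GC box was searched as GGGCGG, and the TATA box as TATAAA.
Anxa2 (chr9:69453433-69453732, plus strand): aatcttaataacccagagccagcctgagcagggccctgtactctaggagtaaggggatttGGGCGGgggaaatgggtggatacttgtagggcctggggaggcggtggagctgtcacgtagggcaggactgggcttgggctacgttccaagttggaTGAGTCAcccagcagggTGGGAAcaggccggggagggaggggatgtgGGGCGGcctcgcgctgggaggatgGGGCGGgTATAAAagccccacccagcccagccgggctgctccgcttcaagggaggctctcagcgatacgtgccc
Anxa1 (chr19:20390622-20390921, minus strand): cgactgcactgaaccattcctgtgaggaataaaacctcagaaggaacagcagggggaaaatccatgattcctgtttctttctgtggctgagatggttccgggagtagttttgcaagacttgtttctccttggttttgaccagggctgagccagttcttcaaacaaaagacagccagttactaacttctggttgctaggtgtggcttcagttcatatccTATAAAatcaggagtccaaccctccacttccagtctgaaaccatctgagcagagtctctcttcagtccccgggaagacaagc
Anxa8 (chr14:34085729-34086028, plus strand): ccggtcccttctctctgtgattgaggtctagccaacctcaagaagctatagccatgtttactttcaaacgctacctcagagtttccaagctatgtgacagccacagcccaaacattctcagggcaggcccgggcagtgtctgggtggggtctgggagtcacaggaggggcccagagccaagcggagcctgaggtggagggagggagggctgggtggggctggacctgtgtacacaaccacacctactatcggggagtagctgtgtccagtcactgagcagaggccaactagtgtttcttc

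The Anxa2 window held all 4 motifs. TGGGAA began 78 bases before the start site, TGAGTCA 95 bases before it and TATAAA 17 bases before it, and GGGCGG occurred 3 times, with no overlap between matches. Among all 32851 windows, TGGGAA occurred in 25.6%, TGANTCA in 7.81%, GGGCGG in 35.7% and TATAAA in 13.6%. Of the 9 member windows, the Anxa2 window was the 1 with TGGGAA and the 1 with TGANTCA. The Anxa1 window also held TATAAA, 32 bases before its start site. The motif GGGCGG was also in windows of Anxa4, Anxa7 and Anxa11. The Anxa8 and Anxa5 windows held none of these letters. A match is a string of letters and was not tested as a binding site.

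Median foreground was 72 to 88.5 intensity units in the green channel over a background of 45 to 46, and 34 to 43.5 in the red channel over 19 to 20. Precision is limited by there being 4 arrays. The adipocyte markers Adipoq, Plin1 and Fabp4 had log2 signals of at least 13.40 in all 8 samples, and all 8 listed adipocyte markers were measured. The samples of replicate 4 stood apart: Xist, the RNA that coats the inactive X chromosome, had log2 signals of 6.12 in WT and 5.87 in Ad/NICD there, against 10.15 to 10.45 in the samples of replicates 1 to 3. The Y-linked gene Ddx3y had 9.96 and 9.55 in replicate 4 and 5.75 to 5.86 in the others. Eif2s3y, also Y-linked, had 10.94 and 10.82 against 5.81 to 6.06. By these genes the pair of replicate 4 was likely male and the other pairs female, which the labels do not state. Sex and any other trait of replicate 4 cannot be told apart. Keratins of mammary epithelium also differed, with Krt18 at 6.33 and 6.71 in replicate 4 and 12.88 to 14.26 in the others. Both genotypes are represented once in replicate 4.

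Anxa2 was higher in Ad/NICD fat on every array and was the member with the largest ratio. Its log2 signal was 13.73, 13.73, 13.81 and 13.93 in the WT samples of replicates 1 to 4, and 14.65, 14.76, 14.66 and 14.91 in the Ad/NICD samples. The lowest Ad/NICD sample thus lay above the highest WT sample, and samples within a genotype lay close together, with an SD of 0.093 in WT and 0.12 in Ad/NICD (n = 4). The log2 ratio was 0.92, 1.03, 0.85 and 0.98 on the 4 arrays, with a mean of 0.94 ± 0.063 (moderated SE, n = 4 arrays), a fold of 1.92. Only 0.291% of gene names had a larger mean ratio. The spread of the ratio over arrays was also small: its SD of 0.080 was exceeded by most gene names, 13.3% having a smaller one.

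In limma's fit over all gene names Anxa2 had an adjusted p of 0.0399, the value that brought the family into view. In all, 12 of 25119 gene names passed at an adjusted p under 0.05, 7 of them higher, which is 0.0279% called higher, 0.0199% lower and 0.0478% in either direction. Leaving out each replicate in turn gave ratios of 0.91 to 0.98 and adjusted p-values of 0.0548 to 0.421. Over all 15 alternatives the ratio stayed between 0.67 and 0.98 and Anxa2 passed in 4, with adjusted p-values from 0.00235 to 0.432. In those 4 its ratio was the reported 0.94, and only the filter, the averaging of probes or the fitting of channels had changed. It did not pass in any alternative that changed the background, the normalisation or the signal used, or left out a replicate. Before normalisation, the red foreground was 17072, 24516, 19002 and 25766 intensity units against 25118, 17726, 16318 and 14976 in green, so on the array of replicate 1 the direction comes from the normalisation of the dyes. Anxa2 is represented by 1 probe on 1 spot, which leaves no second probe to compare.

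**Figure D1:**
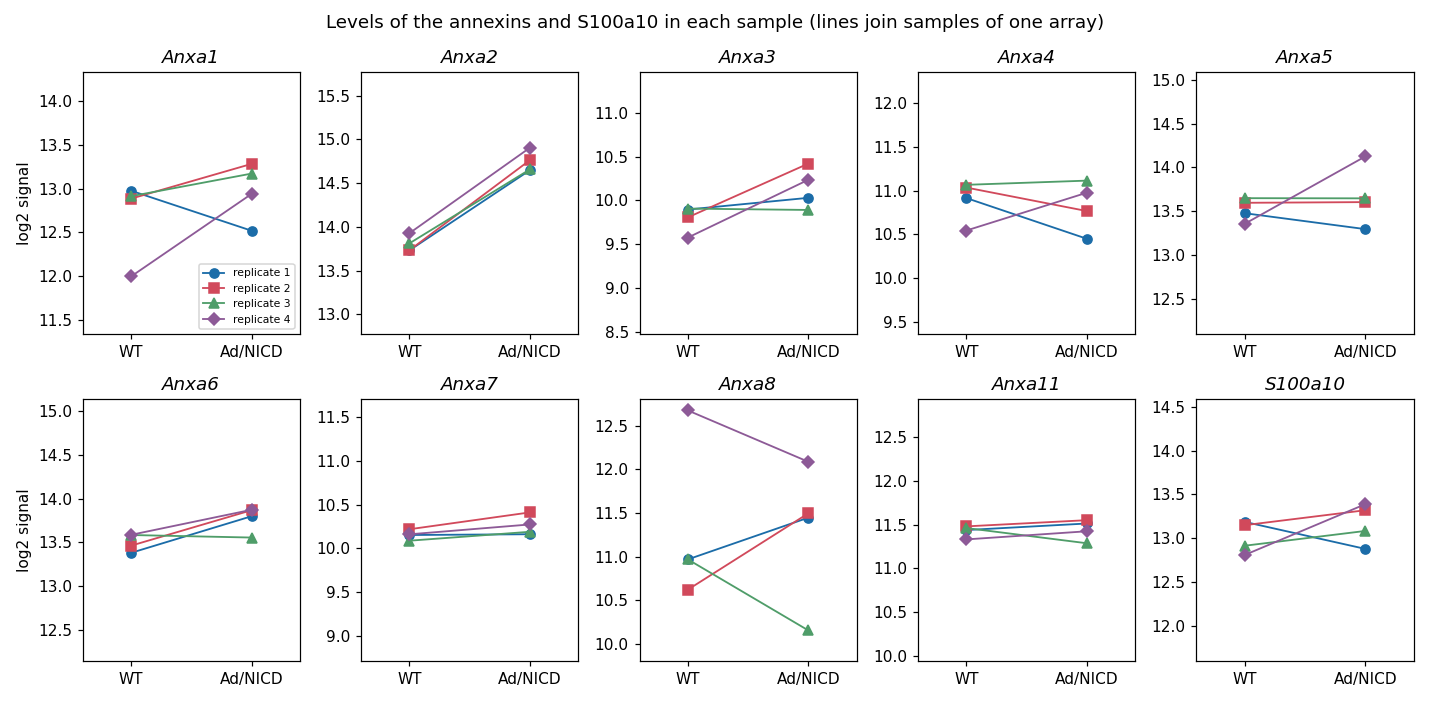
Log2 signal (vertical axis) of each member in the 4 WT and 4 Ad/NICD samples, with a line joining the samples of 1 array and every panel spanning the same number of log2 units around its own centre. In the Anxa2 panel all 4 lines climb side by side, while the lines of S100a10, Anxa1 and Anxa8 cross.

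S100a10, the partner, did not pass, and its ratios lay below those of Anxa2 on every array. Its log2 signal was 13.19, 13.15, 12.91 and 12.81 in the WT samples of replicates 1 to 4, and 12.88, 13.32, 13.08 and 13.39 in the Ad/NICD samples. The genotypes overlapped, and the lowest Ad/NICD sample lay below 3 of the 4 WT samples. The log2 ratio was -0.31, 0.17, 0.17 and 0.58 on the 4 arrays, with a mean of 0.15 ± 0.15 (moderated SE, n = 4 arrays; adjusted p = 0.673 in limma). It was 0.31 without replicate 1 and 0.011 without replicate 4, so those 2 pairs set its size.

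Set side by side, the Anxa2 ratio exceeded the S100a10 ratio on every array, by 1.23, 0.86, 0.68 and 0.40 log2 units, a mean of 0.79 with an SD of 0.35. The gap was widest on the array of replicate 1, where the S100a10 ratio was below 0. In WT mice the order of the samples also differed between these genes: the 2 samples with the highest S100a10 signal had the 2 lowest Anxa2 signals. Over the WT samples alone the Pearson r was -0.95 (n = 4). In Ad/NICD mice both genes had the same order, rising from replicate 1 to 3, 2 and 4. As deviations from the genotype means over all 8 samples, Anxa2 and S100a10 had a Pearson r of 0.19, which pools these unlike orders. By that measure 39.9% of 15829 other gene names with a RefSeq symbol were more like Anxa2 than S100a10 was. The 8 samples share 4 arrays, so this is a description with no test.

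**Figure D2:**
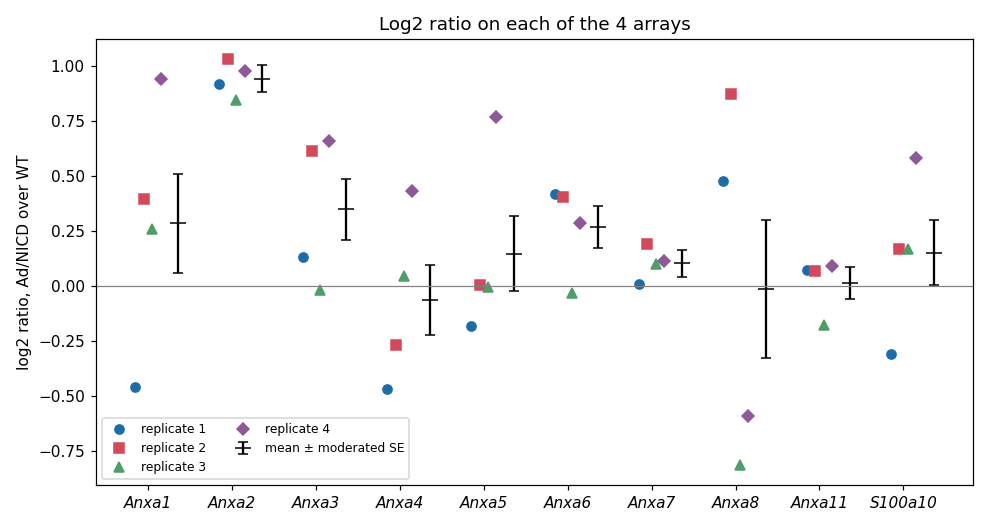
Log2 ratio of Ad/NICD over WT for each member on the arrays of replicates 1 to 4 (coloured symbols), with the mean and its moderated SE in black. The 4 Anxa2 symbols sit between 0.85 and 1.03, while those of S100a10 reach from -0.31 to 0.58.

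Anxa1, Anxa4, Anxa5 and S100a10 each had their lowest ratio on the array of replicate 1 and their highest on that of replicate 4, a pattern noticed in these values and found in 17.1% of all gene names. Anxa1, a glucocorticoid-induced protein that restrains leukocyte recruitment, had WT signals of 12.98, 12.89, 12.91 and 12.00 and Ad/NICD signals of 12.52, 13.28, 13.17 and 12.94. The WT sample of replicate 4 was the low one, and the genotypes overlapped. Its ratios were -0.46, 0.40, 0.26 and 0.94, a mean of 0.29 ± 0.22 (adjusted p = 0.604). Leaving out replicate 4 brought the mean to 0.066, and leaving out replicate 1 brought it to 0.53. The dimmer of its 2 probes gave -0.50, 0.14, 0.027 and 0.68 with a mean of 0.090.

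Anxa5, which binds exposed phosphatidylserine and is used as a probe of dying cells, had WT signals of 13.48, 13.60, 13.65 and 13.36 and Ad/NICD signals of 13.30, 13.60, 13.65 and 14.13. Replicates 2 and 3 were level between genotypes, with ratios of 0.0078 and -0.0028, and the mean of 0.15 ± 0.17 rested on the 0.77 of replicate 4, without which it was -0.059. Anxa4, an annexin found in many epithelia, had ratios of -0.47, -0.27, 0.049 and 0.43, which cancelled to a mean of -0.063 ± 0.16. Without replicate 4 the mean was -0.23, and over the alternatives it had either sign.

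The median of markers of adipose progenitors, the fibroblast-like cells of fat, was also lowest on the array of replicate 1 and highest on that of replicate 4. All 10 listed markers were measured, with median log2 ratios of -0.37, 0.54, 0.13 and 1.07 for replicates 1, 2, 3 and 4. Of the 10, 6 had that pattern themselves (Pdgfra, Cd34, Ly6a, Dcn, Lum and Col1a1), while Pdgfrb, Dpp4, Pi16 and Thy1 did not, and Thy1 was lowest on the array of replicate 4. Their mean log2 signal ran from 12.03 to 13.11 over WT samples and from 12.73 to 13.22 over Ad/NICD samples. Among WT samples, that of replicate 4 was the lowest for all listed progenitor markers except Thy1 and Dpp4. Lum, a matrix proteoglycan, was at 11.31 there against 13.15 to 13.75 in the other WT samples. Thy1 was at 13.73 and Dpp4 at 9.84 there, above 13.40 and 9.64 in the WT sample of replicate 2. The listed smooth muscle markers except Des were also lowest there, with Cnn1 at 8.60 against 12.29 to 12.63. The part of progenitors in the member values was not tested. In whole tissue a change in the share of a cell type and a change in RNA per cell cannot be told apart. Adipocyte markers had medians of -0.25, -0.75, -1.03 and -0.012, lowest on the array of replicate 3, with mean log2 signals of 13.42 to 13.75 in WT and 12.71 to 13.46 in Ad/NICD. Macrophage, neutrophil and endothelial markers also had their lowest median on the array of replicate 1 and their highest on that of replicate 4. The medians were -0.55, 0.42, -0.20 and 0.69 for 7 of 7 macrophage markers and -0.41, 0.31, 0.20 and 2.74 for 5 of 6 neutrophil markers. For 6 of 6 endothelial markers they were -0.435, -0.268, -0.434 and -0.112. The median of all gene names was lowest and highest on the same arrays, in small steps, at -0.024, -0.012, -0.0059 and 0.0065. Lymphocyte markers did not have this order, at -0.76, 0.10, -0.63 and -0.54. The part of these cell types in the member values was not tested either. In median log2 ratio, the other marker lists stood at 0.035 (macrophage), 0.75 (neutrophil), -0.31 (endothelial), -0.31 (smooth muscle), -2.09 (skeletal muscle), 0.29 (Schwann cell), -0.80 (erythroid), -0.45 (lymphocyte), -0.43 (mammary epithelium) and -0.15 (mesothelium), with 0 genes of any marker list past the threshold in the ratio fit. An unadjusted p under 0.05, which 15.2% of all gene names had, was found for 5 of 8 adipocyte, 5 of 6 skeletal muscle, 3 of 3 erythroid, 3 of 5 lymphocyte, 3 of 6 endothelial, 2 of 4 Schwann cell, 2 of 7 macrophage, 1 of 5 smooth muscle and 1 of 10 progenitor markers, and for 0 of the neutrophil, mesothelium and mammary epithelium lists. With separately fitted channels 1 marker, the endothelial claudin Cldn5, passed with the array as a block and 0 did without it. Anxa2 had ratios of 0.85 to 1.03 on these arrays. The progenitor median ran from -0.37 to 1.07 on them and the adipocyte median from -1.03 to -0.012. The part of either cell type in the Anxa2 values was not tested.

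**Figure D3:**
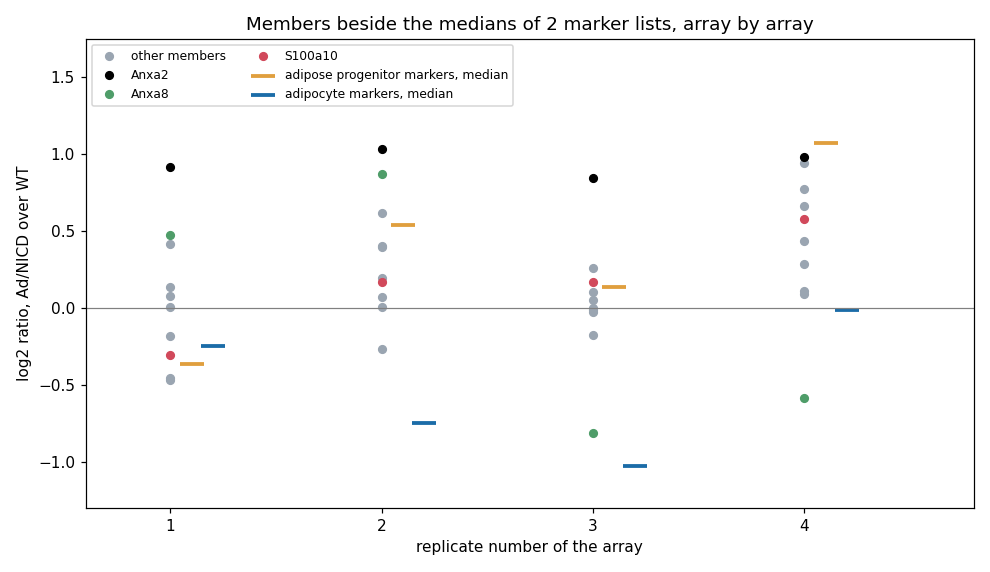
Log2 ratio of each member on each array (points; horizontal axis, replicate number) beside the median ratio of the adipose progenitor and adipocyte marker lists (short horizontal bars). S100a10 and the progenitor median are both below 0 on the array of replicate 1 and highest on that of replicate 4. Anxa2 is near 0.94 on all 4 arrays, and the part of any cell type in these values was not tested.

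Anxa6 and Anxa3 had ratios above 0 on 3 of 4 arrays each, and neither passed over all genes. Anxa6, a large annexin with a doubled core that binds membranes of the endocytic pathway, had WT signals of 13.38, 13.46, 13.59 and 13.59 and Ad/NICD signals of 13.80, 13.87, 13.56 and 13.87. Except for the Ad/NICD sample of replicate 3, each Ad/NICD sample lay above all WT samples. Its ratios of 0.42, 0.41, -0.029 and 0.29 gave a mean of 0.27 ± 0.096, with an unadjusted p of 0.0351 and an adjusted p of 0.286. Anxa3, which neutrophils and other leukocytes carry, had ratios of 0.13, 0.62, -0.016 and 0.66, a mean of 0.35 ± 0.14 (adjusted p = 0.334).

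Anxa7 and Anxa11, a related pair with long glycine- and proline-rich N-terminal tails, had mean ratios near 0 that did not pass. Anxa7 had WT signals of 10.15, 10.22, 10.09 and 10.16 and Ad/NICD signals of 10.16, 10.41, 10.19 and 10.27, an overlap between groups. Its ratio was above 0 on all 4 arrays, at 0.0088 to 0.19, with a mean of 0.10 ± 0.062. The dimmer of its 2 probes pointed the other way, at -0.11. Anxa11 had ratios of 0.075, 0.072, -0.17 and 0.093 and a mean of 0.016 ± 0.073 (-0.0092 without replicate 4), with -0.073 on a dim probe close to background.

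Anxa8, an annexin of epithelia, was the most variable member. Its log2 signal was 10.97, 10.62, 10.97 and 12.67 in the WT samples and 11.45, 11.50, 10.16 and 12.09 in the Ad/NICD samples of replicates 1 to 4. Both samples of replicate 4, the pair with low Xist, were the highest of their genotype. The ratio was 0.48, 0.87, -0.81 and -0.59, above 0 in the first 2 pairs and below 0 in the others, and these cancelled to a mean of -0.012 ± 0.31, which was 0.18 without replicate 4. The probe is printed 10 times on each array, and the SD between spots was 0.055 to 0.10, against an SD of 0.82 between arrays. The other Anxa8 probe gave 0.44, 0.81, -0.50 and -0.16, with the same signs. Mammary epithelium markers had median ratios of -1.07, -1.16, 0.068 and -0.0026 on the same arrays, with 6 of 6 measured and mean log2 signals of 6.36 to 10.40 in WT and 6.41 to 10.50 in Ad/NICD. The low end of both ranges was replicate 4, where Anxa8 was highest. Each of the 6 markers was lowest there in both genotypes. Krt5, for instance, was at 6.53 in that WT sample and at 11.55 to 11.67 in the other WT samples. Of the mesothelium markers 3 of 6 were measured, and Upk3b, Wt1 and Upk1b did not pass the filter. Their part in the Anxa8 values was not tested.

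Over the family, 8 of 10 members had a mean ratio above 0, against 48.4% of all gene names, with a median of 0.15 against -0.0059. With the choice made on this comparison, these counts are a description. Anxa2 and Anxa7 were above 0 on all 4 arrays, where 11.2% of all gene names were, and Anxa2 alone of the members had all Ad/NICD signals above all WT signals, where 4.22% of gene names did and 5.57% had the reverse. With Anxa2 left out, 0 of 9 members passed in limma's ratio fit, 1 of them (Anxa6) had an unadjusted p under 0.05, where 15.2% of all gene names did (6.26% with a higher value), and 0 passed when the channels were fitted separately, whether the array was a random block (1.97% of all gene names called) or not (1.02%). The sign of the other members hangs on how the dyes are balanced. With arrays centred on the median instead of loess, the median of all gene names went from -0.0059 to -0.32, Anxa2 was at 0.67 and was the 1 member above 0, and S100a10 was at -0.21.

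**Figure D4:**
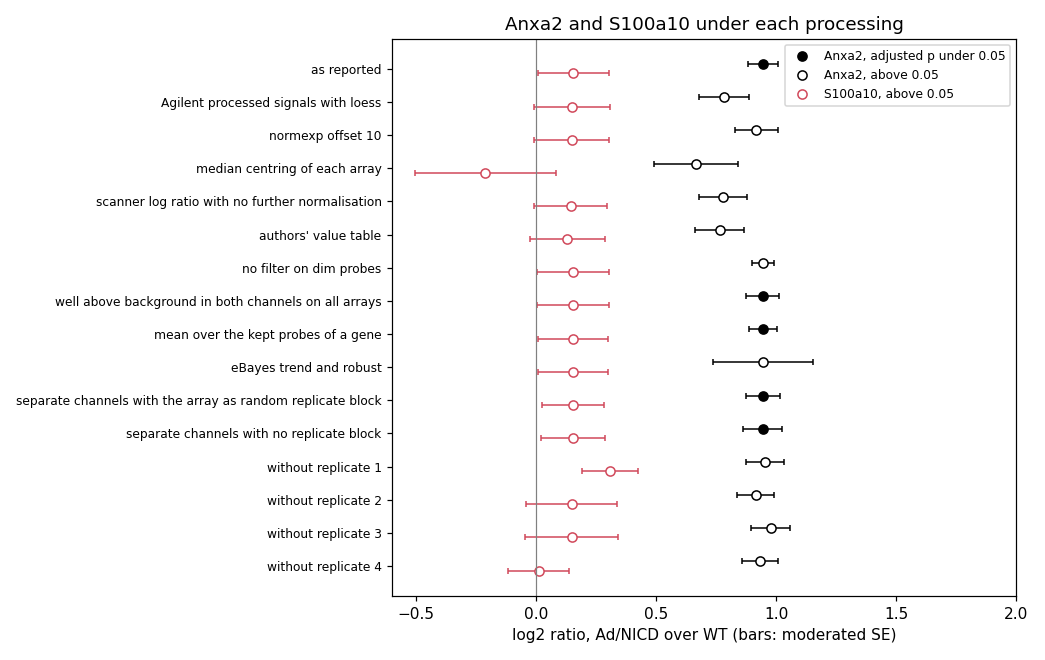
Log2 ratio of Anxa2 (black) and S100a10 (red) with the moderated SE, as reported and under 15 alternatives (rows); filled points passed an adjusted p of 0.05 over all gene names. Anxa2 lies between 0.67 and 0.98 in every row and is filled in the reported fit and 4 alternatives, and S100a10 lies between -0.21 and 0.31 and is never filled.

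Other members of the S100 family, small calcium-binding proteins of which several bind annexins, were measured for 13 of 15 listed genes. In limma's ratio fit 0 of 13 passed, with 6 at an unadjusted p under 0.05 where 15.2% of all gene names were. When channels were fitted separately 2 were called with a random block for the array and without it, where 1.97% and 1.02% of all gene names were. Those 2 were S100b, a glial marker that adipocytes also express, at 1.35 ± 0.14 (adjusted p = 0.104), and S100a16, at 0.62 ± 0.064 (adjusted p = 0.104). S100a16 had ratios of 0.52, 0.71, 0.58 and 0.68 on the 4 arrays, an evenness like that of Anxa2. S100a4, a marker of fibroblasts and macrophages, had 0.51 ± 0.11, with S100a1 at -0.50 ± 0.16 and S100g at -0.23 ± 0.067. The S100g signals were dim, with log2 means of 6.31 in WT and 6.08 in Ad/NICD. S100a8 and S100a9, which neutrophils make in large amounts, had ratios of 3.98 and 3.82 on the array of replicate 4 and -1.28 and -1.37 on that of replicate 1.

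Of the 3 S100 genes among the listed partners, S100a11 and S100a6, both named after their values were seen, had their lowest ratio on the array of replicate 1 and their highest on that of replicate 4, while S100a4 was highest on that of replicate 2. S100a11, which binds annexin A1, had ratios of -0.032, 0.14, 0.21 and 0.58, and S100a6, which binds annexins A2 and A11, had -0.28, 0.57, 0.064 and 0.79. Both means, 0.23 ± 0.11 and 0.28 ± 0.19, missed the threshold. Ahnak, a giant scaffold protein held at the membrane by the annexin A2 and p11 complex, had a mean of -0.037 ± 0.13, and Sri, a calcium-binding partner of annexins A7 and A11, had -0.0060 ± 0.097.

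Among all 17 measured binding partners, which share 3 genes with the S100 list, 0 passed in the ratio fit, 4 had an unadjusted p under 0.05 (15.2% over all gene names), and 1 was called with channels fitted separately, with the block (1.97% over all) and without it (1.02%). That gene was Actb, the cytoskeletal actin, with ratios of 1.07, 1.11, 0.62 and 0.67 and a mean of 0.87 ± 0.11 (adjusted p = 0.114). Plgrkt, a plasminogen receptor, had -0.22 ± 0.062, and Fpr1 and Fpr2, the formyl peptide receptors through which annexin A1 acts, had 0.61 ± 0.22 and 0.60 ± 0.26 at dim mean log2 signals of 6.24 and 6.42 in WT.

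Annexin A2 with p11 is known as a plasminogen receptor, and several annexins act in membrane repair. Of 12 measured plasminogen genes 0 passed, 1 (Plgrkt) had an unadjusted p under 0.05 (15.2% over all gene names) and 0 were called with separate channels, with a median log2 ratio of 0.012. The urokinase gene Plau had 0.24 ± 0.18. Of 14 measured genes of membrane repair and caveolae 0 passed, 2 had an unadjusted p under 0.05, close to the 15.2% of all gene names, and 0 were called with separate channels, with a median of -0.020. Those 2 were Cav2, a caveolin, at -0.66 ± 0.20, and Cavin1, a coat protein of caveolae, at 0.28 ± 0.087. Anxa9, an annexin outside the members, had -0.22 ± 0.11, while Anxa10 and Anxa13 did not pass the filter.

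The likeness of gene patterns was measured as the Pearson r of deviations from the genotype means over 8 samples. Closest to Anxa2 were Ccdc71l, Gltp, Mutyh, Pde1b and Itga7, at 0.97 to 0.99, where the median over 15829 gene names was 0.043. Closest to S100a10 were Uba6, Adat2, Zmat1, Nsmce2 and Cltb, also between 0.97 and 0.98. Each set was picked as the highest of 15829 gene names over 8 samples on 4 arrays. Their r is thus high by that choice, and no link between these genes was tested. Among the members, Anxa2 was most like Anxa8 (0.81) and Anxa6 (0.70). Anxa2, Anxa8 and Anxa6 were each highest in the replicate 4 sample of both genotypes, the pair with low Xist. Their r without that pair was not computed. S100a10 was about equally like Anxa5, Anxa3, Anxa1 and Anxa7 (0.67 to 0.69). For S100a10 the median over 15829 gene names was 0.18, and 11.4% to 12.7% of them were more like it than these members were. Over all 45 pairs of members r ran from -0.71, between Anxa1 and Anxa8, to 0.81, with a median of 0.25.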

How the data were processed

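Per the labels, Cy3 and Cy5 cRNA was hybridised to Agilent arrays, and the scanner output comes from Agilent Feature Extraction 11.5, per the submitters' processing notes. The deposited tables hold intensity values per spot, and the deposited log10 ratio sets red against green processed signals, per the file headers. The deposited value table is on a log2 scale. Each column matched the log2 processed signal of 1 channel minus a constant (column medians -3.84 to -3.52), and the step behind it is not stated in the labels.

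From these files, median foreground and background were corrected with normexp (offset 50) and loess was run within arrays, giving control spots weight 0 (limma 3.58.1, R 4.3.3). Spots of a probe were averaged. Accessions gave a RefSeq symbol (GRCm38.p6 table, used for names) to 28026 probes, while 27655 stayed under the file's name. Kept probes had to stand well above background in 1 channel or both on 3 or more arrays. That flag is missing for the replicate 1 array, so it was rebuilt as a background-subtracted signal above 6 robust SDs of the negative controls, which equalled the scanner's flag for 98.3% to 99.7% of spots elsewhere. The brightest kept probe stood for a gene. The 4 ratios were tested against 0 with lmFit and eBayes, Benjamini-Hochberg adjustment over all gene names, and SEs are the moderated ones. Levels are channel signals after quantile scaling of average brightness.

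The ratio pairs the samples of an array. Deviations of same-numbered samples from their group means correlated at 0.18, 0.17, 0.56 and 0.53. The fit was tested on simulated data. Alternatives covered background, normalisation, filter, probe choice, variance model, pairing and each replicate left out. Members, lists, motifs and markers were chosen with earlier results of these data known. Genes named from lists were those with the smallest p-values, up to 5 a list, unless stated, and 1 gene is not reported here. The fixed marker lists were adipocyte, progenitor, macrophage, neutrophil, endothelial, smooth muscle, skeletal muscle, mesothelium, mammary epithelium, Schwann cell, erythroid, lymphocyte and sex-linked genes. The p-values measure the spread between these 4 pairs.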

Additional observations from a re-analysis of the deposited data

Results flagged for a closer look

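Of 30 groups of 4 values (WT signals, Ad/NICD signals and ratios of the 10 members), 3 held a sample far from the other 3, and chance marks about 1 in 20. The Anxa1 signal of the WT sample of replicate 4 was 12.00, against 12.89 to 12.98 in the other WT samples. The Anxa8 signal of the same WT sample was 12.67, against 10.62 to 10.97. The Anxa11 ratio on the array of replicate 3 was -0.17, against 0.072 to 0.093 on the others.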

How the results depend on the processing

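Over 15 alternatives, 114 of 150 member values kept their sign and their side of the threshold. Another 11 kept their sign with Anxa2 no longer past it, and 25 changed sign, all of them of members that had not passed. Where only the filter, the variance model or the fitting of channels changed, the member ratios were those reported, so their signs were kept by construction. The mean over probes could move only members with more than 1 probe. The gene names past the threshold numbered 12 as reported, and 3 with Agilent processed signals, 0 with median centring, 4 with the scanner's log ratio, 3 with the authors' value table, 0 with no filter, 0 with eBayes trend and robust settings, 496 with the array as a random replicate block, 256 with no replicate block, and 0 to 43 leaving out each replicate. Anxa2 had 0.78 (adjusted p = 0.165) with Agilent processed signals, 0.92 (0.0624) with offset 10, 0.67 (0.0814) with median centring, 0.78 (0.151) with the scanner's log ratio, 0.76 (0.149) with the authors' value table, 0.94 (0.0708) with no filter, 0.94 (0.432) with trend and robust settings, and 0.91 to 0.98 leaving out each replicate, where fewer arrays enter. It passed with the random replicate block (0.00235) and with no replicate block (0.00487).

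With median centring the value turned for S100a10 (-0.21), Anxa1 (-0.098), Anxa3 (-0.17), Anxa5 (-0.18), Anxa6 (-0.055), Anxa7 (-0.41) and Anxa11 (-0.46). The median of all gene names was -0.32 in that setting. Of the members just named, Anxa7 and Anxa11 lay below that median and the others above it. Anxa4 and Anxa8 turned to 0.061 and 0.038 with Agilent processed signals, 0.062 and 0.041 with the scanner's log ratio, and 0.049 and 0.030 with the authors' value table. Anxa8 was 0.0070 with offset 10. The mean over probes gave -0.028 for Anxa11, -0.0038 for Anxa7 and 0.068 for Anxa8. Leaving out each replicate gave -0.0092 to 0.080 for Anxa11, -0.23 to 0.071 for Anxa4, -0.059 to 0.26 for Anxa5 and -0.31 to 0.25 for Anxa8. Beyond the construction of the left-out fits, the cause was not tested. Ratios of dim probes, such as the second Anxa11 probe, are drawn toward 0 by the offset of 50.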
